A study of Mus musculus with 31 samples.

Results

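The genes that encode plasma membrane and lysosomal amino acid transporters were followed across 3 body sites in mice that carried AB1-mCherry, a mesothelioma cell line of mouse. Members were all symbols of the solute carrier families Slc1a, Slc3a, Slc6a, Slc7a, Slc36a, Slc38a and Slc43a with at least 1 TPM (a length-corrected share of all transcripts) in at least 5 whole tumour libraries. Of 61 symbols with these family names among 54456 listed genes, 26 met the rule, and 21 of the 26 were also listed among the 12461 entries of the sorted cell table. Slc1a3, Slc3a1, Slc7a2, Slc7a8 and Slc38a1 were not listed there. A few members are named with these families but carry other cargo, such as creatine (Slc6a8), taurine (Slc6a6) or purine nucleobases (Slc43a3).

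Tumours were grown in the pleural cavity, the peritoneal cavity or under the skin of untreated female BALB/c mice of 12 weeks and were taken on day 10. All groups carried the same AB1-mCherry line, whose brightest mCherry cells had been sorted and expanded in culture before use. Whole tumours gave 6 pleural, 5 peritoneal and 5 subcutaneous libraries, and CD45-negative, mCherry-positive sorted cells gave 5 libraries per site. Serosal below means pleural and peritoneal together, and replicate numbers follow the mouse numbers of the labels. In peritoneal whole tumours the labels' library names number mice 2, 3 and 4 as 3, 4 and 5. Most mouse numbers occur among both whole tumours and sorted cells, so these are not independent sets of mice.

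Cells cannot make essential amino acids and take them up through carriers. Sodium-coupled carriers of the Slc1a and Slc38a families concentrate small neutral amino acids such as glutamine and alanine, and the exchanger LAT1, a dimer of Slc7a5 with the heavy chain Slc3a2 (CD98), trades intracellular amino acids for leucine and other large neutral ones. Cationic amino acids enter through Slc7a1 and Slc7a2, and cystine for glutathione enters through Slc7a11 with Slc3a2. When amino acids run short, the kinase Gcn2 (Eif2ak4) raises translation of the factor Atf4, which activates several of these carrier genes together with asparagine synthetase (Asns).

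The regions in front of the start sites of Slc38a2 and Slc38a4, the members whose level differed most steadily with site, and of Slc7a11, a known Atf4 target, are shown as lower-case letters 5′ to 3′ on the gene's strand, with motif matches in capitals. Each is the 250 bases before the start site in RefSeq on GRCm38.p6, on the minus strand, at chr15:96699729-96699978 for Slc38a2, chr15:97055957-97056206 for Slc38a4 and chr3:50443614-50443863 for Slc7a11.
Slc38a2: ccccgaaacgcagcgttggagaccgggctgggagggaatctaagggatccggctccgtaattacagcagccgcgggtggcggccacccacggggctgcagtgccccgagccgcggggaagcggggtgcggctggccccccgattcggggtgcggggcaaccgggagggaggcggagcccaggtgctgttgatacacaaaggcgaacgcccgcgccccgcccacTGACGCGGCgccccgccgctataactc
Slc38a4: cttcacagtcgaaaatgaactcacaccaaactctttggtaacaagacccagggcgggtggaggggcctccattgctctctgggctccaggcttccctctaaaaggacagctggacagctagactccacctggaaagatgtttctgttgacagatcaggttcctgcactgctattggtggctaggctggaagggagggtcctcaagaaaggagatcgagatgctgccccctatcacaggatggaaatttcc
Slc7a11: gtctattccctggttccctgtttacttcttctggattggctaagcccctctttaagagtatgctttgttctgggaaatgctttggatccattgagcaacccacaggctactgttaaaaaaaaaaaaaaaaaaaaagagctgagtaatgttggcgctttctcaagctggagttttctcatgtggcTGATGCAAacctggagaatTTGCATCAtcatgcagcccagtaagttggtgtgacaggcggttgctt

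RefSeq promoters were matched for 19 of the 26 members, with 30 start sites. The composite site that Atf4 and C/EBP factors bind was searched as TGATGNAA on both strands, and the antioxidant response element as TGACNNNGC on both strands. The Slc7a11 promoter held TGATGCAA 66 bases and its reverse complement TTGCATCA 47 bases before the start site, on opposite strands. The Slc38a2 promoter held TGACGCGGC 27 bases before the start, a match to the antioxidant element. The Slc7a7 promoter also held the composite motif, and promoters of Slc6a9, Slc7a1 and Slc7a6 also held the antioxidant motif. No matches overlapped in the promoters shown. None of the 3 Slc38a4 start sites held either motif, or the E-box CACGTG or the cAMP response element TGACGTCA. The E-box was found for Slc36a1 and Slc38a7 and the cAMP response element for Slc38a6. Of 32851 promoters of this length with the first 50 transcribed bases left out, 3.45% held the composite motif, 10.2% the antioxidant motif, 6.02% the E-box and 1.55% the cAMP response element. In human cells the amino acid response element of SLC38A2 is known from its first intron, which lies outside this window.

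The same 5 members were the most abundant in both tables. In whole tumours Slc38a6, an orphan member of the Slc38 family that is mostly known from brain, averaged 893 TPM over the 16 libraries, followed by Slc3a2 at 180 TPM, Slc38a2 at 116 TPM, Slc1a5 at 108 TPM and Slc7a5 at 71.9 TPM. In sorted cells their order was the same, with Slc38a6 at 1286 TPM, Slc3a2 at 199 TPM, Slc38a2 at 141 TPM, Slc1a5 at 85.6 TPM and Slc7a5 at 83.3 TPM. Slc38a6 ranked between 122 and 193 among all genes of a sorted library. Slc38a6 overlaps Trmt5 in the RefSeq annotation, and whether strand was used in counting is not given in the sources used here, so reads of these genes may be shared. The tables were normalized separately, and levels in them were not tested against each other.

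**Figure D1:**
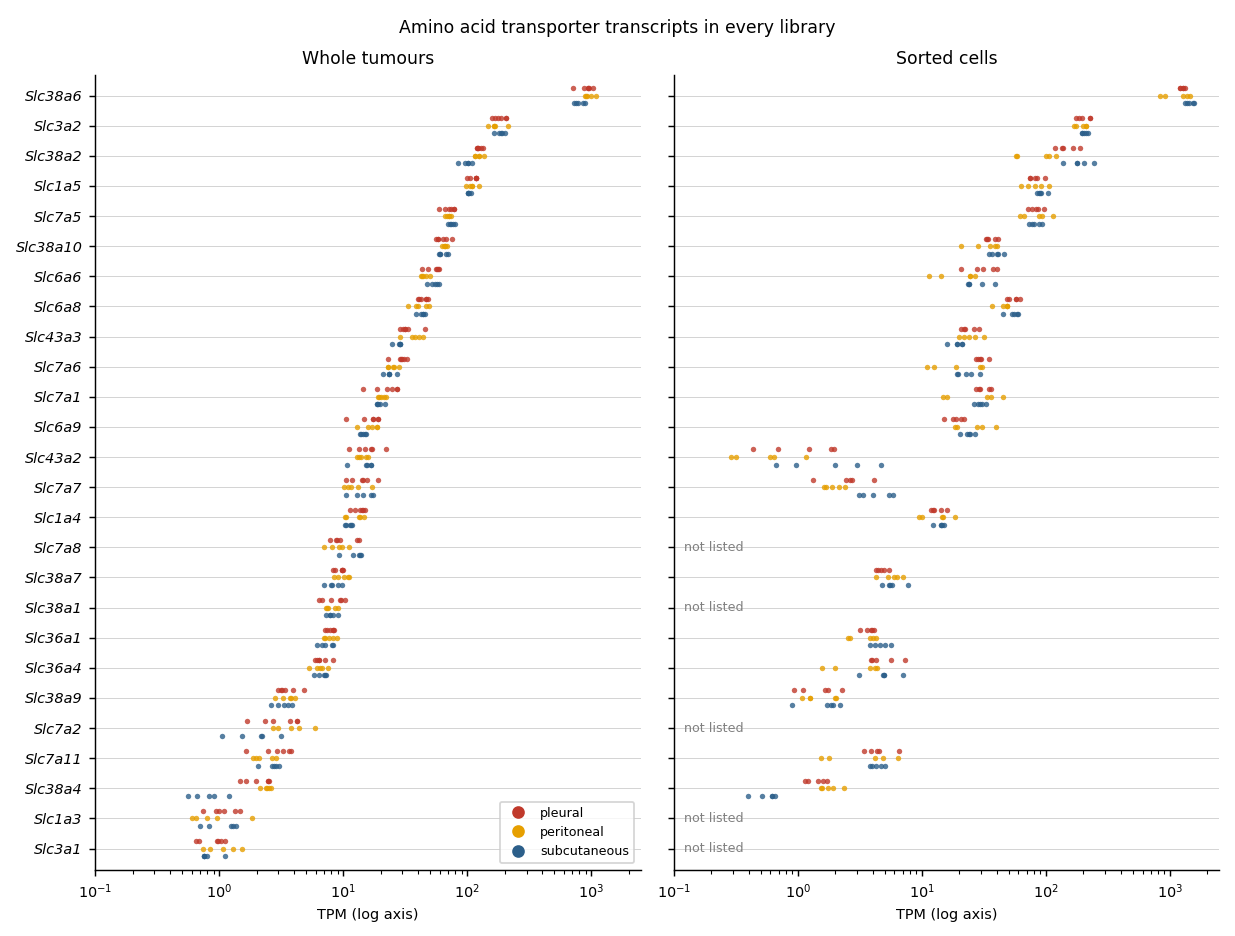
TPM of each member (log axis) in every whole tumour (left) and sorted library (right), each point 1 library, coloured by site and ordered by mean in whole tumours. Slc38a6 lies far above the other members in both tables, Slc38a4 is lowest in subcutaneous samples, and Slc43a2 and Slc7a7 lie lower in sorted cells than in whole tumours.

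Between the highest and the lowest library, members differed by 1.27-fold (Slc1a5) to 5.58-fold (Slc7a2) in whole tumours, with 20 of 26 under 2-fold. In sorted cells the span was 1.36-fold (Slc3a2) to 16.2-fold (Slc43a2), with 7 of 21 under 2-fold. Peritoneal sorted libraries 2 and 5 held the lowest value of 15 of the 21 members (71.4%) and of 45.0% of the 12357 genes tested. The members summed to 1471 TPM in peritoneal sorted library 2 and 1352 TPM in library 5, and to between 1936 and 2397 TPM in the other 13 sorted libraries. Sorted cells had been gated as CD45-negative, yet Ptprc (CD45) reached 12.9 TPM in subcutaneous sorted library 1 and 7.48 TPM in library 2, against 0.228 to 2.05 TPM in the other 13. Mesothelin (Msln), a marker of mesothelial and mesothelioma cells, was at 150 to 316 TPM in every sorted library. Called differences of members in sorted cells are given with and without the libraries of these 4 that they compare, and those of other genes where leaving them out ended a call or moved a value by over 1.5 times.

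Few members changed with site. Changes were tested with limma on log2(TPM + 1) over all genes, and a gene is called here when its Benjamini-Hochberg adjusted p was below 0.05. In pleural against subcutaneous whole tumours 3 of 26 members rose and none fell, where 12.8% of all 15054 genes tested were called, 9.4% higher and 3.4% lower. In peritoneal against subcutaneous whole tumours 4 of 26 rose and none fell, where 12.2% of genes were called, 8.52% higher and 3.64% lower. Pleural against peritoneal whole tumours gave 0 called members with limma, 2 of 26 having an unadjusted p below 0.05, where 0.0531% of genes were called, 0.0266% in each direction.

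The groups did not overlap for 3 members in pleural and 3 in peritoneal against subcutaneous tumours and for 0 in pleural against peritoneal tumours, where this held for 7.76%, 12.5% and 1.14% of all genes. In sorted cells they did not overlap for 1, 3 and 0 members in the same order of comparisons, where this held for 3.11%, 9.48% and 9.57% of all genes.

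The share of members called in whole tumours was thus near that of all genes. The median member difference was 0.09 in pleural and 0.07 in peritoneal against subcutaneous tumours on the log2 scale, and that of all genes was 0.07 in both. The share of higher calls among all called genes depended on scaling: 73.4% in pleural against subcutaneous tumours as deposited, 41.4% with median-of-ratios scaling and 48.4% with quantile normalization. In peritoneal against subcutaneous tumours it was 70.1% as deposited, 42.4% with median-of-ratios scaling and 48.3% with quantile normalization.

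In sorted cells, 1 of 21 members rose in pleural against subcutaneous cells and none fell, where 1.64% of 12357 genes were called, 0.397% higher and 1.25% lower. In peritoneal against subcutaneous cells 1 of 21 rose and 2 fell, where 11.1% of genes were called, 4.75% higher and 6.33% lower. In pleural against peritoneal cells 1 of 21 rose and none fell, where 9.96% of genes were called, 4.45% higher and 5.51% lower. The median member difference in peritoneal against subcutaneous cells was -0.25, with 17 of 21 members below 0, against -0.03 for all genes. Without peritoneal libraries 2 and 5 it was 0.01, with 10 of 21 below 0, against 0.07 for all genes, and without subcutaneous libraries 1 and 2 it was -0.22, with 17 of 21 below 0. The calls with each scaling again split differently: the share of higher calls was 42.9% in peritoneal against subcutaneous cells as deposited and 61.3% with quantile normalization, 24.1% in pleural against subcutaneous cells and 39.7% with quantile normalization, and 44.7% in pleural against peritoneal cells and 55.1% with median-of-ratios scaling.

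**Figure D2:**
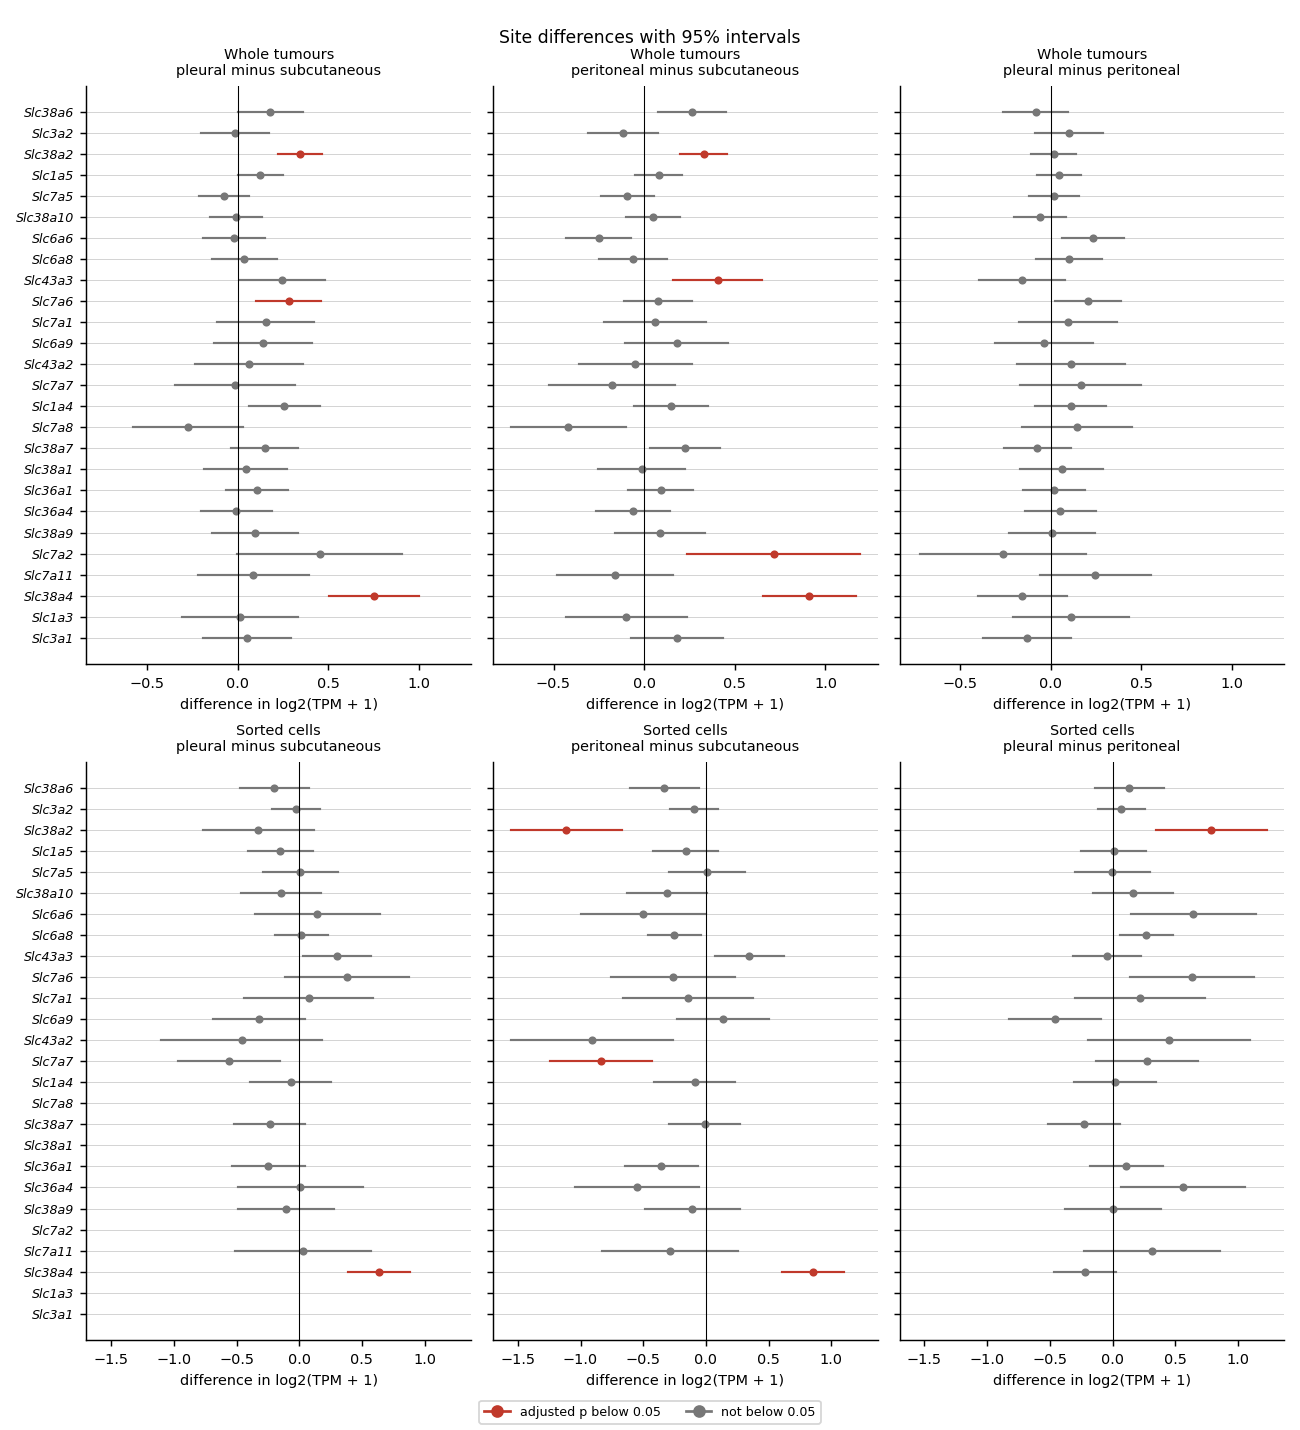
Difference in log2(TPM + 1) between sites for each member (points) with its 95% interval from limma (lines), for whole tumours above and sorted cells below. Red marks adjusted p below 0.05: Slc38a4 is to the right of 0 in both serosal comparisons of both tables, and Slc38a2 is to the right in whole tumours and to the left in peritoneal against subcutaneous sorted cells.

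The clearest difference was in Slc38a4 (SNAT4), an imprinted gene of the system A family that carries neutral and cationic amino acids and is known chiefly from liver and placenta. It was higher at both serosal sites than under the skin, in whole tumours and in sorted cells, at a low level everywhere. In whole tumours Slc38a4 was lowest at 1.46, with a median of 2.21 and a highest value of 2.53 TPM in pleural tumours, was at 2.62, 2.42, 2.38, 2.14 and 2.51 TPM in peritoneal tumours 1, 2, 3, 4 and 7, and was at 0.666, 1.19, 0.559, 0.901 and 0.826 TPM in subcutaneous tumours 1 to 5. Every serosal tumour lay above every subcutaneous one. The means were 2.09 ± 0.47 TPM in pleural (SD, n = 6), 2.42 ± 0.18 TPM in peritoneal (n = 5) and 0.83 ± 0.24 TPM in subcutaneous tumours (n = 5), with a log2 difference of 0.75 for pleural (adjusted p = 0.00128) and 0.91 for peritoneal against subcutaneous (adjusted p = 0.000338).

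In sorted cells Slc38a4 was at 1.59, 1.14, 1.70, 1.46 and 1.21 TPM in pleural libraries 1 to 5, at 1.94, 1.54, 1.74, 2.33 and 1.57 TPM in peritoneal libraries and at 0.621, 0.613, 0.649, 0.513 and 0.394 TPM in subcutaneous libraries. The serosal and subcutaneous libraries again did not overlap. The log2 difference from subcutaneous cells was 0.63 in pleural (adjusted p = 0.00747) and 0.85 in peritoneal cells (adjusted p = 0.000313). Adding 1 TPM before taking logs understates the change of a gene at this level. Slc38a4 reached the 1 TPM rule through the serosal tumours, 11 of them against 1 subcutaneous tumour, so its place among the members depended on the groups where it was high. In sorted cells every serosal library and no subcutaneous library reached 1 TPM, so its test there also rested on the groups where it was high. Of the alternatives, only that with no filter tested it without such a rule. Both calls held in every alternative that tested the gene in either table, and the sorted call for peritoneal cells held without peritoneal libraries 2 and 5 (0.94, adjusted p = 0.00125) and without subcutaneous libraries 1 and 2 (0.89, adjusted p = 0.00188). Without subcutaneous libraries 1 and 2 the sorted call for pleural cells also held (0.67, adjusted p = 0.0334).

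Among the 6 mesothelial markers, Upk3b and Wt1 were, like Slc38a4, higher in serosal than in subcutaneous whole tumours, while the sum of all 6 overlapped between sites. Upk3b averaged 1.10 TPM in pleural and 1.92 TPM in peritoneal tumours against 0.00171 TPM in subcutaneous tumours, and Wt1 averaged 3.48 TPM in pleural and 3.85 TPM in peritoneal tumours against 0.728 TPM in subcutaneous tumours. The sum of the 6 mesothelial markers, mostly Msln, ran from 173 to 294 TPM in pleural, 176 to 229 TPM in peritoneal and 188 to 238 TPM in subcutaneous tumours. Upk3b, Wt1 and 3 further mesothelial markers were not listed in the sorted table, where Msln alone ran from 159 to 316 TPM in pleural, 208 to 304 TPM in peritoneal and 150 to 189 TPM in subcutaneous cells. The 5 hepatocyte markers summed to 0.463 to 4.68 TPM in pleural, 1.14 to 13.4 TPM in peritoneal and 2.15 to 3.51 TPM in subcutaneous tumours, and none was listed in sorted cells. The part of these cells in the Slc38a4 difference was not tested. In bulk tumours, fewer cells of a type and less RNA per cell cannot be told apart.

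Slc38a2 (SNAT2), the system A carrier for alanine, glutamine and other small neutral amino acids that is known to be induced by amino acid shortage and by hypertonic stress, differed with site in opposite directions in the tables. In whole tumours it was lowest at 120, with a median of 122 and a highest value of 133 TPM in pleural tumours, was at 124, 137, 123, 116 and 116 TPM in peritoneal tumours 1, 2, 3, 4 and 7, and was at 109, 84.8, 100.5, 95.3 and 101 TPM in subcutaneous tumours. All serosal tumours stood above all subcutaneous tumours. The log2 difference from subcutaneous tumours was 0.34 in pleural tumours (124 ± 5.05 against 98.0 ± 8.83 TPM, adjusted p = 0.00259). In peritoneal tumours it was 0.33 (123 ± 8.53 TPM, adjusted p = 0.0043). The 7 skeletal muscle markers summed to 61.6 to 1196 TPM in subcutaneous tumours, highest in tumour 2, where Slc38a2 was lowest. They summed to 5.72 to 10.8 TPM in peritoneal and 5.62 to 634 TPM in pleural tumours. Of these, Acta1 was at 16.95 and 248 TPM in pleural tumours 3 and 5. Without both tumours, the pleural Slc38a2 difference was 0.35 (adjusted p = 0.00595). The part of muscle in the differences from subcutaneous whole tumours was not tested further.

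In sorted cells Slc38a2 was at 164, 135, 118, 190 and 136 TPM in pleural libraries 1 to 5, at 121, 58.4, 105, 99.5 and 57.8 TPM in peritoneal libraries and at 201, 137, 178, 177 and 242 TPM in subcutaneous libraries. Peritoneal cells lay below every subcutaneous library, while pleural cells overlapped both other sites. The level averaged 88.3 ± 28.7 TPM in peritoneal against 187 ± 38.3 TPM in subcutaneous cells (log2 difference -1.12, adjusted p = 0.00374, n = 5 each). Without peritoneal libraries 2 and 5 it was still lower, by a difference of -0.76 (adjusted p = 0.0204), and without subcutaneous libraries 1 and 2 by -1.21 (adjusted p = 0.00877).

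Slc38a2 was also higher in pleural than in peritoneal sorted cells (149 ± 28.2 against 88.3 ± 28.7 TPM, log2 difference 0.79, adjusted p = 0.0294), with overlapping groups. That call was lost when pleural library 1, 4 or 5 or peritoneal library 2 or 5 was left out, and without both of the peritoneal libraries the difference was 0.43 (adjusted p = 0.138). Slc6a9 was then the 1 member called in that comparison. Pleural against subcutaneous cells differed by -0.33, with a 95% interval from -0.77 to 0.12. The pleural and the peritoneal comparisons share their subcutaneous libraries. Slc38a1, Slc38a2 and Slc38a4 are consecutive protein-coding genes on chromosome 15 in RefSeq, and Slc38a1 (SNAT1), tested in whole tumours alone, averaged 8.41 TPM in pleural, 7.94 TPM in peritoneal and 8.02 TPM in subcutaneous tumours with no call.

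**Figure D3:**
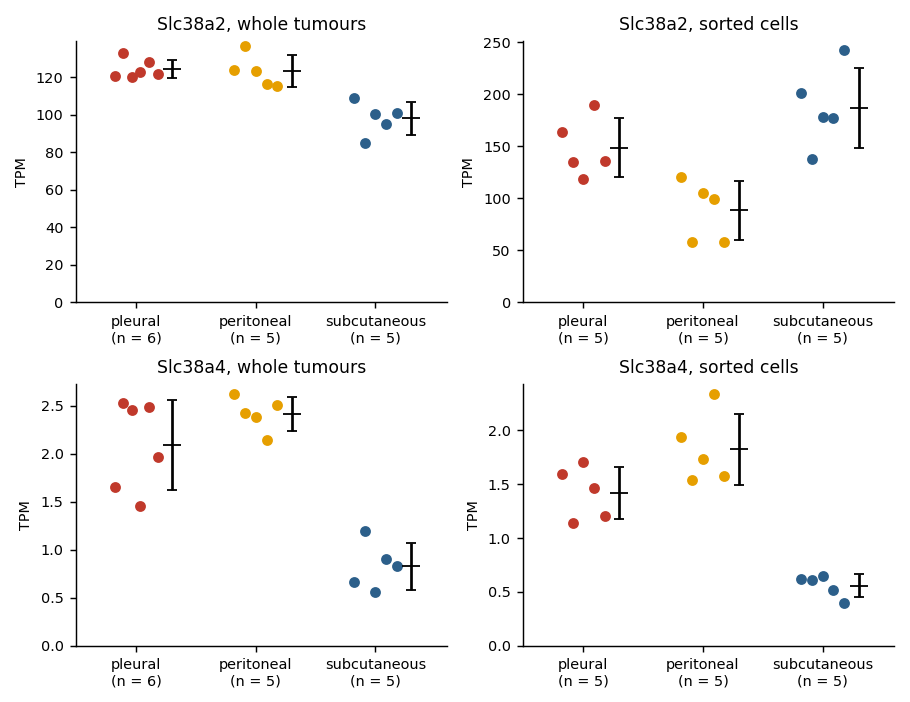
TPM of Slc38a2 (top) and Slc38a4 (bottom) in whole tumours (left) and sorted cells (right) by site, each point 1 library, with mean ± SD beside it. Slc38a4 is above the subcutaneous range in all serosal samples, and Slc38a2 is high in serosal whole tumours but lowest in peritoneal sorted cells, at 57.8 to 121 TPM.

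The other Slc38 members gave no call. In whole tumours Slc38a6 was lowest at 718, with a median of 942 and a highest value of 1033 TPM in pleural tumours, at 927, 1097, 989.7, 911 and 887 TPM in peritoneal tumours and at 889, 724, 856, 785 and 749 TPM in subcutaneous tumours. Sites overlapped, with a difference of 0.27 for peritoneal against subcutaneous (95% interval 0.08 to 0.45, adjusted p = 0.0606). In sorted cells it was at 1328, 1198, 1261, 1276 and 1195 TPM in pleural libraries, at 1276, 906, 1451, 1374 and 834 TPM in peritoneal libraries and at 1309, 1374, 1551, 1417 and 1543 TPM in subcutaneous libraries. The groups overlapped there too, with peritoneal libraries 2 and 5 lowest. Slc38a10, an intracellular family member, was lowest at 55.5, with a median of 61.3 and a highest value of 74.9 TPM in pleural tumours, at 65.7, 68.1, 66.6, 62.01 and 64.5 TPM in peritoneal tumours and at 60.6, 59.4, 60.3, 66.8 and 69.2 TPM in subcutaneous tumours. Its sites overlapped in full, and in sorted cells it was at 32.6, 38.7, 33.3, 33.8 and 40.97 TPM in pleural libraries, at 38.6, 28.1, 35.1, 40.4 and 20.8 TPM in peritoneal libraries and at 46.2, 41.4, 39.98, 34.7 and 36.5 TPM in subcutaneous libraries, again with overlap. Slc38a7 and Slc38a9, lysosomal carriers of which Slc38a9 signals arginine to mTORC1, averaged 9.35 and 3.58 TPM in pleural tumours, 9.93 and 3.54 TPM in peritoneal tumours, and 8.35 and 3.27 TPM in subcutaneous tumours.

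The leucine exchanger Slc7a5 with Slc3a2, and the glutamine carrier Slc1a5, all abundant in both tables, gave no call in any comparison. Slc7a5 (LAT1) was lowest at 58.7, with a median of 72.4 and a highest value of 78.6 TPM in pleural tumours, at 70.9, 66.3, 73.8, 71.1 and 68.0 TPM in peritoneal tumours and at 76.5, 79.7, 73.0, 74.3 and 70.1 TPM in subcutaneous tumours. All 3 sites overlapped. The 95% interval of the log2 difference was -0.21 to 0.06 for pleural and -0.24 to 0.05 for peritoneal against subcutaneous whole tumours, and -0.29 to 0.31 for both serosal sites against subcutaneous sorted cells. In sorted cells Slc7a5 was at 71.8, 83.3, 96.5, 77.4 and 85.4 TPM in pleural libraries, at 114, 61.5, 93.6, 87.4 and 66.9 TPM in peritoneal libraries and at 72.5, 77.01, 80.6, 93.3 and 88.1 TPM in subcutaneous libraries, with peritoneal libraries at both ends of the range.

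The heavy chain Slc3a2 was lowest at 158, with a median of 183 and a highest value of 206 TPM in pleural tumours, at 164, 165, 212, 168 and 148 TPM in peritoneal tumours and at 165, 191, 187, 201 and 179 TPM in subcutaneous tumours. The sites overlapped. Its differences had intervals of -0.20 to 0.17 for pleural and -0.31 to 0.08 for peritoneal against subcutaneous tumours.

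In sorted cells Slc3a2 was at 174, 184, 228, 226 and 196 TPM in pleural libraries, at 211, 174, 209, 198 and 168 TPM in peritoneal libraries and at 194, 203, 219.8, 211 and 195 TPM in subcutaneous libraries. These values overlapped between sites and had intervals of -0.22 to 0.16 for pleural and -0.29 to 0.09 for peritoneal against subcutaneous libraries. Slc1a5 (ASCT2), the sodium-dependent glutamine exchanger, was lowest at 99.8, with a median of 117 and a highest value of 118 TPM in pleural tumours, at 109.7, 97.05, 124, 105 and 109 TPM in peritoneal tumours and at 107, 100.5, 102, 102 and 102 TPM in subcutaneous tumours. Its groups overlapped, and it averaged 112 ± 8.17 TPM in pleural, 109 ± 9.59 TPM in peritoneal and 103 ± 2.37 TPM in subcutaneous tumours, and its differences from subcutaneous tumours had intervals of 0.002 to 0.25 and -0.05 to 0.21. In sorted cells Slc1a5 was at 81.1, 84.5, 74.5, 97.6 and 74.02 TPM in pleural libraries, at 106, 91.6, 81.3, 71.98 and 62.8 TPM in peritoneal libraries and at 89.95, 104, 91.2, 88.2 and 84.1 TPM in subcutaneous libraries, and the sites overlapped. The 95% intervals of these 3 carriers leave out a change of 0.5 log2 units in each comparison with subcutaneous samples. Slc7a8 (LAT2), another light chain of Slc3a2, was at 7.80 to 13.3 TPM in pleural, 7.04 to 11.1 TPM in peritoneal and 9.31 to 13.8 TPM in subcutaneous tumours, with a difference of -0.42 for peritoneal against subcutaneous (95% interval -0.74 to -0.10, adjusted p = 0.0782).

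Slc43a2 (LAT4), an efflux carrier for large neutral amino acids, and Slc7a7, the y+LAT1 light chain that exports cationic amino acids and is abundant in macrophages, were high in subcutaneous sorted libraries 1 and 2. Slc7a7 was at 4.14, 2.43, 1.33, 2.75 and 2.62 TPM in pleural libraries 1 to 5, at 1.69, 1.87, 2.39, 2.14 and 1.62 TPM in peritoneal libraries and at 5.79, 5.38, 3.33, 3.12 and 4.04 TPM in subcutaneous libraries. All peritoneal libraries lay below all subcutaneous ones, and pleural library 1 overlapped them. Slc7a7 averaged 1.94 ± 0.32 TPM in peritoneal against 4.33 ± 1.20 TPM in subcutaneous cells (log2 difference -0.84, adjusted p = 0.0131).

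That call was lost without subcutaneous libraries 1 and 2 (-0.61, adjusted p = 0.0832) and without peritoneal libraries 2 and 5 (-0.77, adjusted p = 0.0664). The 7 listed macrophage markers summed to 635 TPM in subcutaneous library 1, 438 TPM in library 2 and 18.7 to 98.3 TPM in the other 13 sorted libraries. The sum was 18.8 TPM in pleural library 1 and 19 TPM in subcutaneous library 5, where Slc7a7 was at 4.14 and 4.04 TPM. The part of macrophages in the Slc7a7 difference was not tested beyond leaving subcutaneous libraries 1 and 2 out. In sorted cells Slc43a2 was at 0.438, 1.95, 0.692, 1.86 and 1.22 TPM in pleural libraries, at 1.15, 0.290, 0.598, 0.640 and 0.316 TPM in peritoneal libraries and at 4.70, 2.99, 0.974, 2.00 and 0.667 TPM in subcutaneous libraries. It was again highest in subcutaneous libraries 1 and 2, with overlapping groups and a difference of -0.91 for peritoneal against subcutaneous (adjusted p = 0.0649). Slc7a7 overlaps Oxa1l in the annotation. In whole tumours Slc7a7 was lowest at 10.5, with a median of 14.3 and a highest value of 19.1 TPM in pleural tumours, at 10.9, 10.2, 13.1, 11.6 and 17.1 TPM in peritoneal tumours and at 10.5, 12.8, 14.5, 17.4 and 16.7 TPM in subcutaneous tumours. These sites overlapped. Slc43a2 in whole tumours was lowest at 11.1, with a median of 15.8 and a highest value of 22.1 TPM in pleural tumours, at 14.01, 13.4, 15.4, 13.01 and 15.9 TPM in peritoneal tumours and at 10.8, 15.3, 16.6, 15.6 and 16.7 TPM in subcutaneous tumours. Its sites overlapped too, and macrophage markers summed to 1237 to 2454 TPM in pleural, 1014 to 1655 TPM in peritoneal and 1782 to 2251 TPM in subcutaneous tumours.

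**Figure D4:**
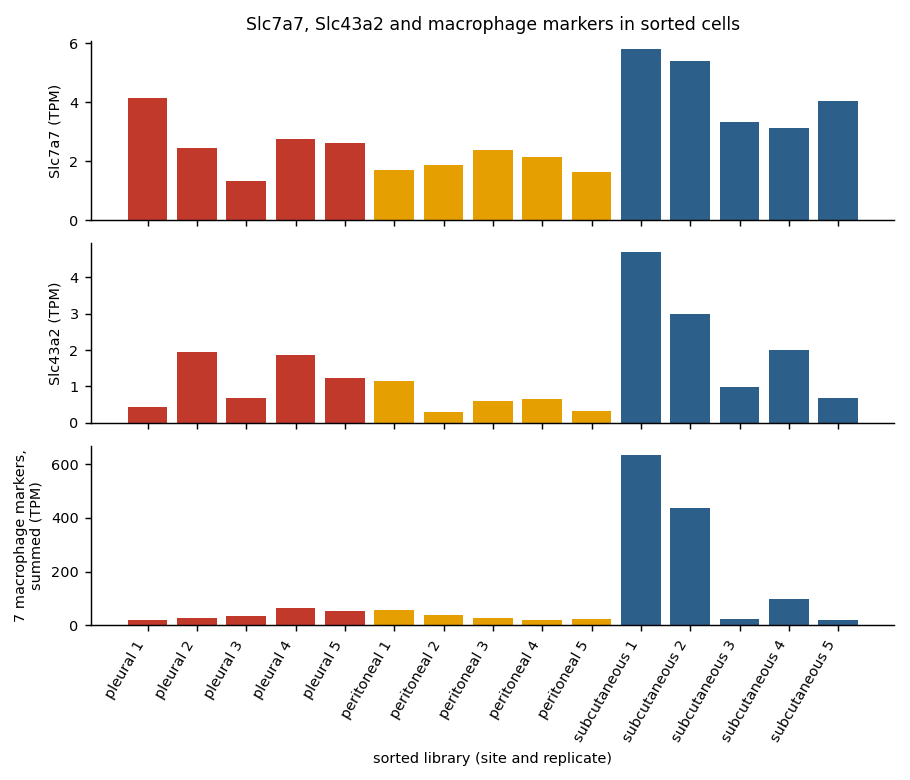
TPM of Slc7a7 and Slc43a2 and the summed TPM of 7 macrophage markers in each sorted library, by site and replicate (bars start at 0). Subcutaneous libraries 1 and 2 are highest in all 3 panels, with marker sums of 635 and 438 TPM.

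The remaining cationic and cystine carriers gave no call or a call that was lost in most alternatives. Slc7a6, the y+LAT2 light chain, was lowest at 22.8, with a median of 29.5 and a highest value of 32.7 TPM in pleural tumours, at 22.8, 25.6, 25.3, 22.8 and 28.4 TPM in peritoneal tumours and at 23.5, 21.1, 23.4, 26.9 and 23.3 TPM in subcutaneous tumours. Pleural tumours overlapped subcutaneous ones through pleural tumour 7. In pleural against subcutaneous tumours it rose by 0.28 log2 units (29.0 ± 3.38 against 23.7 ± 2.11 TPM, adjusted p = 0.0415). The call was lost in 16 of 24 alternatives, among them leaving out any 1 of pleural tumours 1 to 5, peritoneal tumour 3 or subcutaneous tumours 1, 2, 3 or 5. In sorted cells Slc7a6 was at 29.5, 27.2, 34.5, 28.5 and 30.1 TPM in pleural libraries, at 29.2, 12.5, 18.98, 30.7 and 10.9 TPM in peritoneal libraries and at 29.3, 19.1, 24.8, 19.4 and 22.6 TPM in subcutaneous libraries. Groups overlapped there with no call, and peritoneal libraries 2 and 5 were lowest.

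Slc7a2 (CAT2), which supplies arginine to activated macrophages, was at 2.96, 2.72, 4.37, 5.89 and 3.80 TPM in peritoneal tumours 1, 2, 3, 4 and 7 and at 1.05, 2.21, 3.15, 1.52 and 2.19 TPM in subcutaneous tumours. The groups overlapped. It rose in peritoneal against subcutaneous tumours by 0.71 log2 units (3.95 ± 1.27 against 2.03 ± 0.79 TPM, adjusted p = 0.0493), a call lost in 16 of 23 alternatives, including each peritoneal tumour left out, pleural tumours 2, 4 or 7, and subcutaneous tumours 1, 2, 4 or 5. In pleural tumours it ran from 1.68 to 4.23 TPM, with a median of 3.22 TPM. 

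Slc7a1 (CAT1), the broad arginine carrier, was lowest at 14.4, with a median of 23.6 and a highest value of 27.3 TPM in pleural tumours, at 19.5, 19.2, 22.3, 21.1 and 20.3 TPM in peritoneal tumours and at 19.00, 19.6, 21.7, 18.7 and 18.9 TPM in subcutaneous tumours. In sorted cells it was at 29.3, 28.6, 34.97, 36.2 and 27.2 TPM in pleural libraries, at 45.2, 14.7, 35.98, 33.7 and 16.04 TPM in peritoneal libraries and at 28.1, 26.2, 30.6, 29.6 and 32.99 TPM in subcutaneous libraries. No comparison was called, and the sites overlapped in both tables, with peritoneal sorted libraries 2 and 5 again lowest.

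Slc7a11 (xCT), with the pair of Atf4-C/EBP motif matches shown above, was lowest at 1.64, with a median of 3.11 and a highest value of 3.75 TPM in pleural tumours, at 2.00, 1.87, 2.67, 2.87 and 2.08 TPM in peritoneal tumours and at 3.04, 2.77, 2.88, 2.66 and 2.04 TPM in subcutaneous tumours. In sorted cells it was at 3.86, 3.40, 6.50, 4.37 and 4.52 TPM in pleural libraries, at 6.44, 1.53, 4.89, 4.18 and 1.77 TPM in peritoneal libraries and at 4.29, 4.67, 3.95, 3.79 and 5.04 TPM in subcutaneous libraries. All groups overlapped, and none of its 6 comparisons was called. Its lowest sorted values were in peritoneal libraries 2 and 5.

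Slc43a3, a purine nucleobase carrier also abundant in endothelium, was at 43.5, 38.1, 35.7, 28.5 and 40.9 TPM in peritoneal tumours 1, 2, 3, 4 and 7 and at 24.9, 28.2, 28.5, 28.5 and 28.5 TPM in subcutaneous tumours. The groups did not overlap, although peritoneal tumour 4 was just above the highest subcutaneous tumour. It rose in peritoneal against subcutaneous tumours by 0.41 log2 units (37.3 ± 5.75 against 27.7 ± 1.59 TPM, adjusted p = 0.0345), and the call was lost in 12 of 24 alternatives, among them leaving out peritoneal tumour 1, 2, 3 or 7 or any subcutaneous tumour. In pleural tumours it ran from 28.9 to 45.3 TPM with a median of 31.5 TPM, all above the subcutaneous range, and was not called (log2 difference 0.25, adjusted p = 0.143). In sorted cells Slc43a3 was at 22.3, 20.6, 28.8, 21.9 and 26.4 TPM in pleural libraries, at 31.8, 20.1, 23.9, 27.00 and 21.8 TPM in peritoneal libraries and at 19.3, 21.1, 20.9, 15.9 and 19.1 TPM in subcutaneous libraries. The sites overlapped with no call, and without peritoneal libraries 2 and 5 the peritoneal against subcutaneous difference of 0.50 was called (adjusted p = 0.0375). Endothelial markers summed to 62.8 to 146 TPM in pleural, 70.1 to 110 TPM in peritoneal and 92.6 to 136 TPM in subcutaneous tumours, and their part was not tested.

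The taurine, creatine and glycine carriers gave no call with all libraries. Slc6a6, the taurine carrier, was lowest at 43.03, with a median of 56.4 and a highest value of 58.6 TPM in pleural tumours, at 46.5, 43.4, 42.5, 43.9 and 50.2 TPM in peritoneal tumours and at 52.01, 47.4, 57.2, 54.6 and 59.2 TPM in subcutaneous tumours. Peritoneal tumours overlapped subcutaneous ones, and means were 53.6 ± 6.36 TPM in pleural, 45.3 ± 3.12 TPM in peritoneal and 54.1 ± 4.64 TPM in subcutaneous tumours, with a difference of -0.25 for peritoneal against subcutaneous (adjusted p = 0.0641). In sorted cells Slc6a6 was at 20.8, 31.1, 37.7, 27.8 and 39.9 TPM in pleural libraries, at 26.7, 14.3, 24.6, 24.5 and 11.4 TPM in peritoneal libraries and at 38.9, 30.7, 24.1, 23.5 and 23.9 TPM in subcutaneous libraries.

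Slc6a8, the creatine carrier, was lowest at 40.4, with a median of 44.2 and a highest value of 48.4 TPM in pleural tumours, at 40.1, 49.5, 46.04, 38.7 and 32.97 TPM in peritoneal tumours and at 38.9, 45.2, 44.1, 44.3 and 42.4 TPM in subcutaneous tumours. Its sites overlapped. In sorted cells it was at 50.8, 48.4, 57.02, 61.2 and 57.4 TPM in pleural libraries, at 48.3, 44.99, 48.8, 48.9 and 36.8 TPM in peritoneal libraries and at 53.1, 58.8, 58.98, 55.6 and 45.4 TPM in subcutaneous libraries. Slc6a9, the glycine carrier GLYT1, averaged 18.8 ± 2.56 TPM in pleural, 27.1 ± 8.59 TPM in peritoneal and 23.7 ± 2.38 TPM in subcutaneous sorted cells. Its pleural minus peritoneal difference was -0.46 (95% interval -0.82 to -0.09, adjusted p = 0.0949).

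Slc1a4 (ASCT1), which exchanges serine and other small neutral amino acids, averaged 13.5 ± 1.42 TPM in pleural, 12.5 ± 1.94 TPM in peritoneal and 11.1 ± 0.605 TPM in subcutaneous tumours, with a pleural difference of 0.26 (adjusted p = 0.0719). Slc36a1, a proton-coupled lysosomal carrier, and Slc36a4 averaged 7.89 and 6.71 TPM in pleural, 7.80 and 6.44 TPM in peritoneal, and 7.27 and 6.73 TPM in subcutaneous tumours. Slc1a3, a glutamate carrier, and Slc3a1, the heavy chain of the renal cystine carrier, were near the rule's limit, at up to 1.84 and 1.52 TPM, reaching 1 TPM in 7 and 6 whole tumours. Slc3a1 overlaps Prepl. None of these 5 members was called.

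Over the members not called, the 95% intervals of the log2 difference lay within 1 unit for 23 of 23 members in pleural against subcutaneous tumours, 22 of 22 in peritoneal against subcutaneous tumours and 26 of 26 in pleural against peritoneal tumours. In sorted cells they did so for 19 of 20, 16 of 18 and 16 of 20 members in the same order of comparisons. A missed call therefore left room for larger differences in sorted cells, widest for Slc43a2, with a lower bound of -1.56 in peritoneal against subcutaneous cells.

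Of the 35 symbols that did not reach the rule, 1 (Slc7a12) was listed at 0 in every whole tumour, 31 never reached 1 TPM, and 4 reached it in some library. These 4 were Slc43a1, Slc7a4, Slc36a2 and Slc38a5, with highest values of 2.65, 1.93, 1.35 and 1.11 TPM. The symbols that did not reach the rule include most of the neurotransmitter carriers of Slc6a and the neuronal and renal glutamate carriers of Slc1a.

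Genes listed for the amino acid response gave a minority of calls, upward in whole tumours and in both directions in sorted cells. The list holds targets of Atf4 and also kinases that act ahead of it, Gcn2 (Eif2ak4) and Perk (Eif2ak3). Both kinase genes were among those that rose in pleural against subcutaneous tumours. Of 21 listed genes 5 rose and none fell in pleural against subcutaneous tumours, and 3 rose and none fell in peritoneal against subcutaneous tumours, where 9.4% and 8.52% of all genes were called higher. Sesn2, a leucine sensor and Atf4 target, rose in both, with 24.8 ± 3.23 TPM in pleural and 23.6 ± 1.94 TPM in peritoneal against 17.96 ± 1.54 TPM in subcutaneous tumours (log2 differences 0.44 and 0.38, adjusted p = 0.00615 and 0.0152). Trib3 and Gdf15 also rose in peritoneal tumours, by more than Sesn2. Their log2 differences were 0.56 and 0.55, with adjusted p = 0.019 and 0.018 in the fit without pleural tumours 3 and 5. These tumours are not in that comparison, so leaving them out changed only the shared spread and does not test the differences. The counts of response genes fell to 2 and 1 with quantile normalization. They ran from 2 to 6 and from 1 to 5 when each library was left out. The pleural count was 2 without pleural tumour 2 or 4 or subcutaneous tumour 2, and the peritoneal count was 1 without peritoneal tumour 2 or 3 or subcutaneous tumour 2 or 5.

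In peritoneal against subcutaneous sorted cells, 1 of the 21 response genes rose and 3 fell, where 4.75% of all genes were called higher and 6.33% lower. Asns, which makes asparagine with nitrogen from glutamine and was named after its values were seen, was at 258, 213, 230, 250 and 246 TPM in peritoneal libraries and at 166, 197, 181, 218 and 177 TPM in subcutaneous libraries. These ranges overlapped in peritoneal library 2. Asns rose by 0.35 log2 units (239 ± 18.03 against 188 ± 20.5 TPM, adjusted p = 0.0184), and was not called without subcutaneous libraries 1 and 2 (0.32, adjusted p = 0.0692). The mTORC1 inhibitor gene Ddit4 fell by 0.95 (37.5 ± 9.12 against 72.4 ± 11.8 TPM, adjusted p = 0.00324), and Ppp1r15a, which reverses the translation block, fell by 0.91 (82.9 ± 17.7 against 154 ± 10.3 TPM, adjusted p = 0.00172). The third gene that fell was Eif2ak3, which encodes the stress kinase Perk, and it was not called without peritoneal libraries 2 and 5 (-0.57, adjusted p = 0.0706).

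In pleural against peritoneal sorted cells, 3 of the 21 rose and 5 fell, where 4.45% of all genes were called higher and 5.51% lower, and 1 rose and 4 fell without peritoneal libraries 2 and 5. In pleural against subcutaneous sorted cells 1 fell, the secreted stress hormone gene Fgf21 (5.22 ± 1.34 against 10.5 ± 1.76 TPM, adjusted p = 0.00916). Slc38a2 fell in the comparison in which Asns rose, and both are known targets of Atf4. The median over the 21 genes was -0.13 in peritoneal against subcutaneous cells, against -0.03 for all genes.

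With all libraries, a minority of the enzymes that make amino acids or charge tRNAs rose in peritoneal against subcutaneous sorted cells. Of all genes 4.75% were called higher there. Of 13 genes for serine, glycine, proline and one-carbon synthesis 3 rose in peritoneal against subcutaneous cells and none fell, and 0 rose and 3 fell in pleural against peritoneal cells, where 5.51% of all genes were called lower. Shmt2, the mitochondrial serine hydroxymethyltransferase, averaged 181 ± 17.5 TPM in peritoneal against 128 ± 10.5 TPM in subcutaneous cells (log2 difference 0.50, adjusted p = 0.00292). Without peritoneal libraries 2 and 5 the counts were 6 and 6, where 3.28% of all genes were called higher in the first and 2.79% lower in the second, and without subcutaneous libraries 1 and 2 the first was 1.

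Of 20 tRNA charging genes 4 rose and none fell in peritoneal against subcutaneous cells, and 0 rose and 5 fell in pleural against peritoneal cells. Without peritoneal libraries 2 and 5 those counts were 13 and 9, where 3.28% of all genes were called higher in the first and 2.79% lower in the second. Cars, which charges cysteine tRNA, averaged 130 ± 10.6 TPM in peritoneal against 91.5 ± 11.8 TPM in subcutaneous cells (log2 difference 0.51, adjusted p = 0.00352). In whole tumours 2 of the 20 rose in each comparison with subcutaneous tumours, near the 9.4% and 8.52% of all genes called higher. With quantile normalization 1 rose in the pleural and 0 in the peritoneal comparison. The pleural count was 6 without pleural tumour 3 and 1 without pleural tumour 2, 4, 5 or 7 or without subcutaneous tumour 1, 2, 4 or 5. The peritoneal count was 0 or 1 without any 1 peritoneal or subcutaneous tumour and 1 without pleural tumour 2 or 7. Of 12 tested glutamine, cysteine and glutathione genes 1 rose in peritoneal against subcutaneous cells, where 4.75% of all genes were called higher. It was Cth, which makes cysteine from cystathionine (30.6 ± 6.54 against 20.5 ± 3.97 TPM, adjusted p = 0.0332). The count was 0 without subcutaneous libraries 1 and 2 or without peritoneal library 4. Cth was also the 1 of these genes that fell in pleural against peritoneal cells, where 5.51% of all genes were called lower. Its difference there was -1.02, with adjusted p = 0.00286 in the fit without subcutaneous libraries 1 and 2, which are not in this comparison and changed only the shared spread. Without peritoneal libraries 2 and 5 it was -1.21 (adjusted p = 0.00169).

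Genes listed for the breakdown of arginine, tryptophan and branched-chain amino acids differed in whole tumours and sorted cells. The list also holds Ass1, a gene of arginine synthesis, which with Odc1 made up the falls in peritoneal tumours. Of 15 tested in whole tumours, 2 rose and 2 fell in peritoneal against subcutaneous tumours, and 1 rose in pleural against subcutaneous tumours, where 12.2% and 12.8% of all genes were called. Arginase (Arg1), which splits arginine, was at 136, 132, 194, 263 and 153 TPM in peritoneal tumours and at 13.8, 107, 71.8, 24.7 and 61.3 TPM in subcutaneous tumours, with no overlap (log2 difference 1.92, adjusted p = 0.0165). Ido1, which degrades tryptophan, rose by 1.52 (7.57 ± 5.33 against 1.65 ± 0.94 TPM, adjusted p = 0.0215). The pleural call of Arg1 (log2 difference 1.38, adjusted p = 0.04999) was at the threshold, and the count was 0 when pleural tumour 2 was left out. The peritoneal count of 4 was 2 without subcutaneous tumour 2. Of 11 tested in sorted cells, 2 fell in peritoneal and 1 in pleural against subcutaneous cells, where 11.1% and 1.64% of all genes were called. In pleural against peritoneal cells 1 rose, where 9.96% of all genes were called.

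Argininosuccinate synthetase (Ass1), which lets cells make arginine from citrulline and is often lost in human mesothelioma, fell at both serosal sites in sorted cells and at the peritoneal site in whole tumours. In sorted cells it was at 1.01, 1.31, 1.33, 1.90 and 1.63 TPM in pleural libraries, at 1.34, 1.10, 1.72, 0.797 and 0.770 TPM in peritoneal libraries and at 27.2, 14.1, 7.61, 11.7 and 3.88 TPM in subcutaneous libraries. No serosal library reached the lowest subcutaneous one, and subcutaneous libraries 1 and 2, those with CD45 and macrophage markers, were the highest. The log2 difference from subcutaneous cells was -2.28 in pleural (adjusted p = 0.000928) and -2.48 in peritoneal cells (adjusted p = 0.000266). Without subcutaneous libraries 1 and 2 it was -1.74 in pleural (adjusted p = 0.00218) and -1.94 in peritoneal cells (adjusted p = 0.000509). Endothelial markers summed to 18.4 to 32.0 TPM in subcutaneous, 4.08 to 21.5 TPM in pleural and 3.25 to 11.5 TPM in peritoneal sorted libraries. Erythroid markers went the other way, with 4.80 to 15.5 TPM in subcutaneous, 37.9 to 372 TPM in pleural and 14.1 to 146 TPM in peritoneal libraries. The part of other cells in the Ass1 difference was not tested. In whole tumours Ass1 fell in peritoneal against subcutaneous tumours (28.9 ± 9.47 against 59.5 ± 6.92 TPM, log2 difference -1.08, adjusted p = 0.00878). Pleural tumours averaged 42.5 ± 9.92 TPM, overlapped subcutaneous tumours and were not called (log2 difference -0.50, adjusted p = 0.131).

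Amino acid sensing genes gave few calls. Of 20 tested in each table, 1 rose and 2 fell in pleural against subcutaneous tumours, 2 rose in peritoneal against subcutaneous tumours, and 2 fell in each of the peritoneal against subcutaneous and the pleural against peritoneal comparisons of sorted cells. The shares over all genes were 12.8% and 12.2% in these whole tumour comparisons and 11.1% and 9.96% in these sorted comparisons. Leaving out 1 library gave 0 to 3 called in the pleural and 1 to 3 in the peritoneal comparison with subcutaneous tumours, with 0 or 1 called in the pleural one without pleural tumour 1, 2, 4 or 7 or any subcutaneous tumour, and 1 in the peritoneal one without peritoneal tumour 1, 2 or 3 or any subcutaneous tumour. Both sorted counts were 0 without peritoneal libraries 2 and 5. Of the 2 that rose in peritoneal tumours, folliculin (Flcn), a Rag GTPase regulator, had the larger difference, at 18.4 ± 1.62 TPM in peritoneal against 14.2 ± 0.70 TPM in subcutaneous tumours (log2 difference 0.35, adjusted p = 0.00296). Of 10 further amino acid or peptide carriers tested in sorted cells, Slc15a4, the lysosomal histidine and peptide carrier, fell in peritoneal against subcutaneous cells (8.25 ± 1.55 against 12.8 ± 0.77 TPM, log2 difference -0.59, adjusted p = 0.00435).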

How the data were processed

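Whole tumours (16 libraries) and sorted CD45-negative, mCherry-positive cells (15 libraries; the sort is named in the series' design text) were sequenced as single-end reads of 50 bases, per the labels' protocols. The authors deposited TPM values per gene; the submitters' processing notes name kallisto and GRCm39. The kallisto version, annotation release and strand use were not given in sources used here. TPM keeps no read numbers, so depth is unknown. The tables were normalized separately and tested apart. From the sorted cells, 17 entries named as dates were left out.

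Differences in log2(TPM + 1) were tested by limma 3.58.1 (R 4.3.3) over 15054 and 12357 genes that reached 1 TPM in 5 or more libraries. The 3 sites of a table shared 1 fit with a mean-variance trend, and p was adjusted by the Benjamini-Hochberg method. Within a table each library has its own mouse number in the labels, and p-values measure the spread between these samples. Between the tables most mouse numbers are shared, so a result seen in both is not a replication in other mice.

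Members, gene lists and tests were chosen with earlier results of these data known. Values per sample (lowest, median and highest for the 6 pleural tumours) are given for members called in any comparison, the 8 most abundant in each table and 8 well-known carriers. For some lists and comparisons called genes were named, not always those with the largest changes. List symbols were later set to the tables' older names. Alternatives were an added 0.1 TPM, no filter, a 5 TPM filter, 2 scalings, a fit of 2 sites, the replicate block and libraries left out. The fit was tested on simulated data. Promoters came from RefSeq (GRCm38.p6).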

Additional observations from a re-analysis of the deposited data

Results flagged for a closer look

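In 93 groups of 4 to 6 libraries, 1 value stood far from the others in 3, and chance flags about 1 in 20 such groups. Slc43a2 was lowest in subcutaneous whole tumour 1, at 10.8 TPM against 15.3 TPM in the next. Slc43a3 was highest in pleural whole tumour 3, at 45.3 TPM against 33.1 TPM in the next. In that tumour fibroblast markers summed to 1463 TPM and endothelial markers to 146 TPM, each the highest of the pleural tumours. Its neutrophil and adipocyte marker sums, at 165 and 102 TPM, were also the highest of the pleural tumours. Slc43a3 was lowest in subcutaneous whole tumour 1, at 24.9 TPM against 28.2 TPM in the next, while the other subcutaneous tumours lay within 28.2 to 28.5 TPM. The part of other cells in these values was not tested.

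Slc38a2 moved in opposite directions in peritoneal against subcutaneous samples, with a log2 difference of 0.33 in whole tumours and -1.12 in sorted cells. Every peritoneal tumour lay above every subcutaneous tumour, and every peritoneal sorted library lay below every subcutaneous one. The tables were normalized separately, and the difference between them was not tested.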

How the results depend on the processing

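Slc38a4 (both serosal comparisons in both tables), Slc38a2 in both serosal comparisons of whole tumours and Slc38a2 in peritoneal against subcutaneous sorted cells kept their calls in every alternative that tested them. Of 1969 values of uncalled named members over the alternatives, 93 changed sign while uncalled and 24 were called. Where a count moved, the cause was not tested.

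Members called changed as follows. In peritoneal against subcutaneous whole tumours there were 2 with no filter and 2 with the 5 TPM filter; in sorted cells 1 with that filter and 6 with median-of-ratios scaling. In pleural against subcutaneous sorted cells there were 0 with the 5 TPM filter, which leaves Slc38a4 untested. In pleural against peritoneal sorted cells there were 4 with median-of-ratios scaling, 4 with quantile normalization and 0 in a fit of the 2 sites. A further fit of 2 sites without peritoneal libraries 2 and 5 was chosen after the data were seen and is called the added fit. In that comparison 1 member was called without these libraries and 1 in the added fit, in both cases Slc6a9 and not Slc38a2. Leaving out each library gave 2 to 4, 2 to 5 and 0 to 0 called members in whole tumours and 1 to 1, 3 to 4 and 0 to 2 in sorted cells, for pleural against subcutaneous, peritoneal against subcutaneous and pleural against peritoneal.

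Over all genes, pleural against peritoneal whole tumours gave 0 calls with 0.1 TPM added, 0 with the 5 TPM filter, 4 with median-of-ratios scaling, 0 with the replicate block and 21 without pleural tumours 3 and 5. Pleural against subcutaneous tumours gave 1136 with no filter and 849 with the block, and peritoneal against subcutaneous tumours 1164 with no filter and 656 with the block. In sorted cells pleural against subcutaneous gave 107 with the 5 TPM filter and 106 without subcutaneous libraries 1 and 2. Peritoneal against subcutaneous gave 2486 with quantile normalization, 739 without peritoneal libraries 2 and 5 and 600 in the added fit. Pleural against peritoneal gave 1932 with median-of-ratios scaling, 2229 with quantile normalization, 691 in the 2-site fit, 482 without peritoneal libraries 2 and 5 and 410 in the added fit. Leaving out each library gave 785 to 2237, 934 to 2183 and 0 to 33 calls in whole tumours and 142 to 269, 758 to 1606 and 525 to 1421 in sorted cells.

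The labels give each site its own mice, so replicate numbers, taken from the mouse numbers, do not mark pairs across sites. Deviations of same-numbered libraries correlated above 0.1 in 4 of 14 pairs of whole tumours and 3 of 15 pairs of sorted libraries. In whole tumours they ran from -0.38 to 0.26, against -0.30 to 0.33 for differently numbered pairs. In sorted cells they ran from -0.30 to 0.35, against -0.33 to 0.24. The highest same-numbered sorted pairs thus exceeded every differently numbered one.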

Other observations

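Slc43a1, a large neutral amino acid carrier, and Slc38a5, a glutamine carrier known from erythroid precursors, did not reach the members' rule and were highest in peritoneal whole tumour 7, at 2.65 and 1.11 TPM. In that tumour the 3 erythroid markers summed to 4102 TPM, against at most 938 TPM in the other 15 whole tumours, and their part in these values was not tested.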
